A study of Mus musculus with 9 samples.

Results

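The genes described here mark endothelial cells (ECs) of veins. They are Nr2f2, Ackr1, Ephb4, Slco2a1 and Bst1, taken by name as 5 of the 18193 genes measured. All probe sets annotated with 1 of these genes alone were used, 14 of the 34945 probe sets tested, with 6 for Nr2f2, 4 for Slco2a1, 2 for Bst1 and 1 each for Ackr1 and Ephb4. No probe set of these genes was shared with another gene. The 5 genes and the lists read beside them were chosen with earlier results of these data known. Shares of all genes set beside their counts are therefore a description and not an independent comparison. ECs were sorted from whole lungs of NSG mice, which are immunodeficient and so accept human tumors. Cells with CD31 were kept after removal of those with the leukocyte markers CD45 and CD11b, the epithelial marker CD326 (EpCAM), the stromal markers CD140a and CD140b, or the GFP of the cancer cells. Expression was read on Affymetrix mouse arrays, on which 1 or more probe sets stand for each gene, and is given as log2 intensity.

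The 3 groups had 3 arrays each, called biological replicates in the labels. In the metastasis anti-VEGF group, mice aged 6 to 8 weeks received MDA-MB-231-LM2 human breast cancer cells through the tail vein and the anti-VEGF antibody B20.4.1.1 at 10 mg/kg by repeated injection into the abdomen. In the metastasis IgG group, mice received the same cells and control IgG. Lungs of both groups were taken on day 21. The healthy IgG group had age-matched mice without cancer cells, also given control IgG. All mice were thus NSG and all received an antibody. Per the methods, the metastatic mice were picked for a comparable tumor load by bioluminescence, the whole lung was sorted and not the nodules alone, and the tumor came from 1 derived cell line.

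In the developing vasculature, arterial and venous fates are set apart by opposed programs. VEGF and Notch signaling favor the arterial fate, while NR2F2, an orphan nuclear receptor also known as COUP-TFII, restrains Notch signaling in venous ECs and is also required for lymphatic ECs. Ephrin-B2 on arterial cells and its receptor EPHB4 on venous cells mark the boundary between them. In adult tissue, the veins and small venules are also the sites at which ECs display chemokines and capture leukocytes, a function in which ACKR1 takes part.

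Before the members, the identity of the sorted cells was examined. Pecam1, the gene of CD31, lay between 13.32 and 13.47 log2 units in all 9 arrays, and none of 8 pan-endothelial genes was called in any comparison. The mean level of those 8 genes was 12.94 to 12.98 under anti-VEGF, 12.92 to 12.97 in metastasis IgG and 12.94 to 12.98 in healthy lungs. Genes of other cell types did move, although CD45, CD11b, CD140a and CD140b had been used to exclude cells. For comparison, 5.03% of all genes were called higher and 2.9% lower in metastasis IgG than in healthy lungs. Under anti-VEGF, these shares were 3.81% and 2.01%. Of 12 macrophage genes, 10 were higher in metastasis IgG than in healthy lungs, and their mean level was 9.56 to 10.02 under anti-VEGF, 9.59 to 9.86 in metastasis IgG and 8.38 to 8.74 in healthy lungs. Of 11 fibroblast genes, 5 were higher and 1 lower, with mean levels of 10.27 to 10.45, 10.19 to 10.51 and 9.54 to 10.34 in the same order of groups. Of 10 pericyte and smooth muscle genes, 2 were higher, 1 of them Pdgfrb, the gene of the excluded marker CD140b (log2 change 1.18, adjusted p = 0.0209, limma). Ptprc, Itgam, Epcam and Pdgfra, the genes of the other excluded markers, did not pass the test. Of 10 epithelial genes, 2 were nonetheless higher in metastasis IgG, the surfactant protein genes Sftpd (1.18 ± 0.26, adjusted p = 0.0323) and Sftpb (0.92 ± 0.20, adjusted p = 0.0287), and none passed under anti-VEGF. Their mean level was 9.25 to 9.70 under anti-VEGF, 9.30 to 9.74 in metastasis IgG and 8.52 to 9.55 in healthy lungs. Of 8 neutrophil genes, 3 were higher under anti-VEGF and 1 in metastasis IgG than in healthy lungs, with mean levels of 7.87 to 8.10, 7.56 to 7.86 and 7.42 to 7.64. The part of such cells in the results on venous genes was not tested.

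Nr2f2 rose in lungs with metastases on the probe set with its highest signal. On 1416159_at, the arrays gave 10.86, 11.23 and 11.06 log2 units under anti-VEGF, 11.21, 11.10 and 11.14 in metastasis IgG, and 9.98, 10.06 and 10.11 in healthy lungs. Every metastatic array therefore stood above every healthy array, while the arrays of the 2 metastatic groups overlapped. The log2 change of metastasis IgG over healthy IgG was 1.10 ± 0.08 (SE, n = 3 arrays per group; 95% interval 0.91 to 1.29), a 2.15-fold difference with an adjusted p of 0.000268 in limma's moderated test, adjusted by Benjamini-Hochberg over all 34945 probe sets. Where sorted cells are measured in bulk, more cells of a type and more RNA per cell cannot be told apart, and this applies to all differences described here.

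The other 5 probe sets of Nr2f2 gave smaller values, and none of them passed the test. On 1416158_at, the arrays gave 9.10, 9.18 and 9.56 under anti-VEGF, 9.22, 9.88 and 9.28 in metastasis IgG, and 8.98, 9.06 and 8.76 in healthy lungs. Metastasis IgG did not overlap healthy lungs, and the log2 difference was 0.53 ± 0.17 (adjusted p = 0.118). On 1416160_at, the values were 8.19, 8.66 and 8.71 under anti-VEGF, 8.53, 8.49 and 8.53 in metastasis IgG, and 8.34, 8.30 and 8.27 in healthy lungs. Here too metastasis IgG stood above healthy lungs, by 0.21 ± 0.08 log2 units (adjusted p = 0.149), whereas 1 anti-VEGF array lay under all healthy arrays.

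The remaining 3 probe sets had means under the median of all values in the table, 8.31 log2 units. On 1436475_at, the arrays gave 7.94, 8.72 and 8.27 under anti-VEGF, 8.17, 8.66 and 8.33 in metastasis IgG, and 7.98, 8.13 and 7.88 in healthy lungs, with a metastasis IgG difference of 0.39 ± 0.13 (adjusted p = 0.13) and no overlap. On 1444229_at, they gave 7.11, 7.34 and 7.20 under anti-VEGF, 7.11, 7.60 and 6.89 in metastasis IgG, and 6.93, 6.94 and 7.11 in healthy lungs, where the groups overlapped. On 1431237_at, they gave 7.20, 7.89 and 7.43 under anti-VEGF, 7.04, 8.26 and 7.32 in metastasis IgG, and 8.28, 7.28 and 8.35 in healthy lungs. This was the probe set with a negative difference, -0.43 ± 0.36 for metastasis IgG, with an interval of -1.24 to 0.38 and groups that overlapped. Read as the mean of its 6 probe sets, Nr2f2 differed from healthy lungs by 0.27 log2 units under anti-VEGF (adjusted p = 0.21) and 0.33 in metastasis IgG (adjusted p = 0.137) and was not called, so the call rests on 1416159_at. The second metastasis IgG array had the highest value of its group on 4 of these 5 probe sets, but not on 1416160_at.

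**Figure D1:**
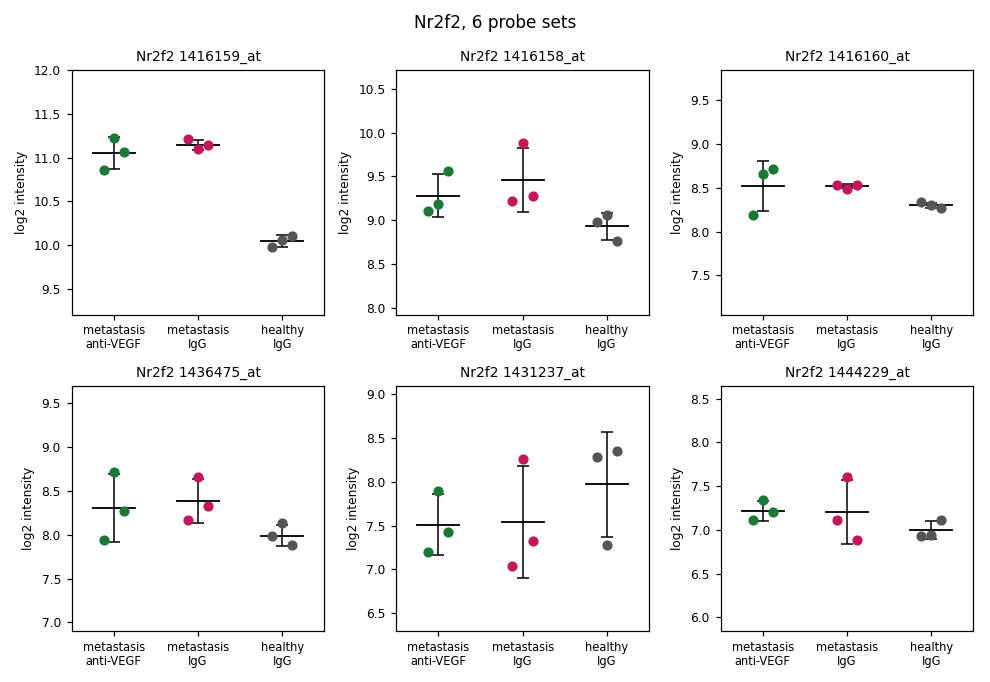
Log2 intensity of Nr2f2 on each of its 6 probe sets (y axis, log2 units, the same span in each panel) in the metastasis anti-VEGF, metastasis IgG and healthy IgG groups (x axis). Points are arrays, and bars are the mean ± SD of 3 arrays. The 6 metastatic arrays lie at 10.86 or more on 1416159_at against at most 10.11 in the healthy arrays, while the groups lie closer together or overlap on the other 5 probe sets.

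Because all 6 probe sets carry the name of 1 gene, their disagreement is described as the value of 1416159_at minus that of another probe set within each array. It gets no test, since the disagreement was known when the probe sets were taken one by one. Minus 1416160_at, this difference was 2.35 to 2.67 under anti-VEGF, 2.61 to 2.68 in metastasis IgG and 1.64 to 1.84 in healthy lungs. Minus 1436475_at, it was 2.51 to 2.92, 2.44 to 3.05 and 1.94 to 2.22 in the same order. The metastatic and healthy arrays did not overlap in either case. The mean difference of metastasis IgG exceeded that of healthy lungs by 0.89 for 1416160_at, 0.71 for 1436475_at, 1.54 for 1431237_at, 0.90 for 1444229_at and 0.58 for 1416158_at, and the groups overlapped for the last of these. Under anti-VEGF, against the same healthy arrays, the mean difference exceeded theirs by 0.65 to 1.47 across the 5 probe sets. The positions of the probe sets on the transcripts were not used here. The 3′ minus 5′ signal of the actin control, a measure of RNA integrity, was 0.526 to 0.62 under anti-VEGF, 0.488 to 0.555 in metastasis IgG and 0.609 to 0.62 in healthy lungs. That of the Gapdh control was 0.0601 to 0.194, -0.0338 to 0.0995 and 0.0969 to 0.176, and the part of RNA integrity in the disagreement was not tested.

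Nr2f2 is also a gene of lymphatic ECs and of mural and stromal cells, so their genes were read beside it. Of 6 lymphatic genes, 1 was higher in metastasis IgG than in healthy lungs, the podoplanin gene Pdpn (0.61 ± 0.15, adjusted p = 0.0419). Prox1, the defining transcription factor of lymphatic ECs, differed by 0.21 ± 0.20 and did not pass (adjusted p = 0.588). The mean level of the lymphatic list was 10.63 to 10.91 under anti-VEGF, 10.70 to 10.95 in metastasis IgG and 10.50 to 10.72 in healthy lungs. That of the pericyte and smooth muscle list was 8.91 to 8.98, 8.94 to 9.16 and 8.49 to 8.95. Their part in the Nr2f2 values was not tested.

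Ackr1 showed the highest change of the 5 genes. It encodes an atypical chemokine receptor of venular ECs and erythrocytes, once called the Duffy antigen, which binds inflammatory chemokines without signaling through G proteins. Its probe set 1432273_a_at gave 11.23, 11.51 and 10.98 log2 units under anti-VEGF, 11.14, 11.07 and 10.82 in metastasis IgG, and 9.26, 9.54 and 9.72 in healthy lungs. The lowest metastatic array lay more than 1 log2 unit above the highest healthy array. Metastasis IgG exceeded healthy lungs by 1.50 ± 0.14 log2 units (95% interval 1.19 to 1.82), or 2.84-fold (adjusted p = 0.000661, limma).

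Since erythrocytes also carry ACKR1, erythroid genes were read beside it. Of 5 erythroid genes, Slc4a1, the anion exchanger of the red cell membrane, was called higher in metastasis IgG than in healthy lungs, by 1.77 ± 0.13 log2 units on 1434502_x_at (adjusted p = 0.000231), while its other probe sets differed by 0.01 to 0.24. Alas2, the erythroid heme synthesis enzyme, differed by -0.73 ± 0.23 (adjusted p = 0.106), and Klf1, Epor and Hemgn did not pass either. Under anti-VEGF, Slc4a1 was again higher than in healthy lungs on 1434502_x_at (1.82 ± 0.09), with its other probe sets at -0.20 to -0.05, and Alas2 was lower (-0.89 ± 0.12, adjusted p = 0.00553). The mean level of the list was 8.00 to 8.03 under anti-VEGF, 7.92 to 8.11 in metastasis IgG and 7.78 to 7.92 in healthy lungs. The part of red cell RNA in the Ackr1 values was not tested.

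The sequences before the starts of Nr2f2 and Ackr1 are shown because these are the 2 genes that rose. Each run holds the 250 bases before the annotated start in RefSeq on build GRCm38.p6, read 5′ to 3′ on the minus strand, where both genes lie. The window of Nr2f2 is chr7:70366747-70366996, next to the gene at chr7:70351946-70366746, and that of Ackr1 is chr1:173333504-173333753, next to the gene at chr1:173331886-173333503. Capitals mark matches to AGGTCA, the core bound by many nuclear receptors, TGGGAA, the core bound by the Notch effector RBPJ, or AGATAA, a core bound by GATA factors, searched on both strands.
Nr2f2: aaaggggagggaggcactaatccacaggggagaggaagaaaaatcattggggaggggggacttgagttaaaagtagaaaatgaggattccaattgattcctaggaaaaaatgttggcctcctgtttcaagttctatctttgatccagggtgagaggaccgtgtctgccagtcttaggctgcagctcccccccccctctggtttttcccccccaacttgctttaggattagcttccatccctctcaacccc
Ackr1: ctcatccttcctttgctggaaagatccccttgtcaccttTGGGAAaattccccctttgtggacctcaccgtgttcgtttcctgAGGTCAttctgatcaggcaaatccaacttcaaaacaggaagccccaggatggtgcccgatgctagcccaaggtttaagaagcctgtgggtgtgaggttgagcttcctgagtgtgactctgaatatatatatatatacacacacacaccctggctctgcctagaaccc
No match to the 3 motifs was found in the Nr2f2 window. The Ackr1 window held TGGGAA at 211 to 206 bases and AGGTCA at 167 to 162 bases before the start, without overlap. Among 32851 mouse windows of the same length, 21.6% held TGGGAA, 14% held AGGTCA and 9.99% held AGATAA, so a match is common and is given as a description alone. The windows of Ephb4 and Slco2a1 held no match. That of Slco2a1, chr9:103008237-103008486, lies within the span annotated for the gene, before a start other than its first base. A window of Bst1 was not analysed here.

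Ephb4, Slco2a1 and Bst1 did not pass the test in any comparison. Ephb4 encodes the receptor tyrosine kinase that binds ephrin-B2 and lies at chr5:137350109-137374522. It gave 11.79, 12.07 and 11.81 log2 units under anti-VEGF, 11.88, 11.74 and 11.75 in metastasis IgG, and 11.82, 11.77 and 11.93 in healthy lungs, and the groups overlapped. The metastasis IgG difference was -0.05 ± 0.09, and its 95% interval of -0.25 to 0.15 limits a change to less than the one seen for Ackr1 or for Nr2f2 on 1416159_at.

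Slco2a1 encodes the prostaglandin transporter, which carries prostaglandins into cells for inactivation, and lies at chr9:103007061-103096002. Its 4 probe sets gave like results. On 1420913_at, the arrays gave 13.38, 13.29 and 13.32 under anti-VEGF, 13.35, 13.38 and 13.34 in metastasis IgG, and 13.32, 13.35 and 13.34 in healthy lungs. All 9 arrays lay within 0.1 log2 units of each other on this probe set. On 1444242_at they gave 12.34, 12.11 and 12.23, then 12.38, 12.24 and 12.40, then 12.37, 12.11 and 12.25 in anti-VEGF, metastasis IgG and healthy lungs. The other probe sets, 1450032_at and 1420914_at, ranged over 11.60 to 11.91 and 11.13 to 11.52, with overlapping groups. Differences of metastasis IgG over healthy lungs were 0.01 to 0.10 log2 units, and the 4 intervals lay within -0.16 to 0.37.

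Bst1 encodes CD157, a cell surface enzyme of NAD and cyclic ADP-ribose metabolism found on venous ECs and on myeloid and stromal cells, and lies at chr5:43818880-43843468. On 1449453_at, the arrays gave 10.36, 10.62 and 10.45 under anti-VEGF, 10.29, 10.60 and 10.47 in metastasis IgG, and 10.30, 10.47 and 10.35 in healthy lungs. On 1449454_at, they gave 9.48, 9.75 and 9.76, then 9.42, 9.61 and 9.40, then 9.74, 9.65 and 9.49 in the same order. The groups overlapped on both, and the metastasis IgG differences were 0.08 ± 0.10 (interval -0.16 to 0.32) and -0.15 ± 0.10 (interval -0.38 to 0.09).

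**Figure D2:**
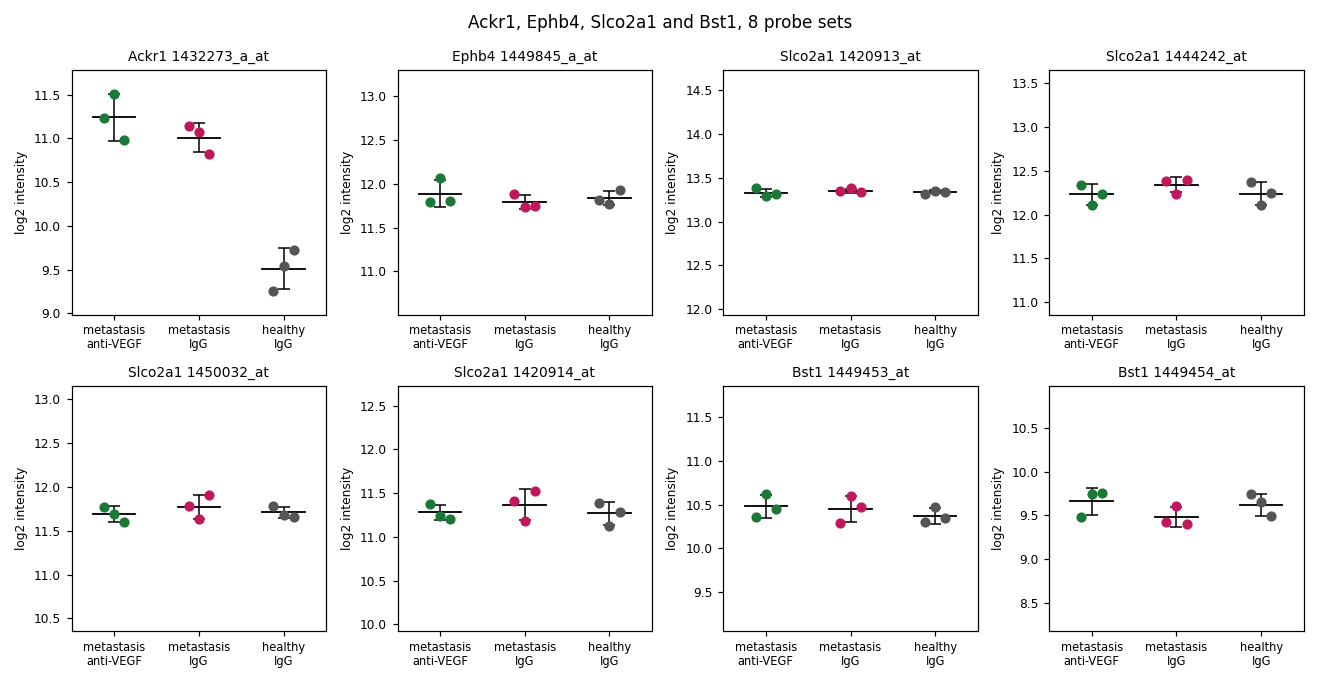
Log2 intensity of Ackr1, Ephb4, Slco2a1 and Bst1 on their 8 probe sets (y axis, log2 units, the same span in each panel) in the metastasis anti-VEGF, metastasis IgG and healthy IgG groups (x axis). Points are arrays, and bars are the mean ± SD of 3 arrays. Ackr1 lies at 10.82 or more in the metastatic arrays and at 9.72 or less in the healthy arrays, while the groups overlap on the other 7 probe sets.

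Counted over all members, metastasis IgG against healthy IgG gave 2 of 14 probe sets called, both higher, where 7.41% of all probe sets tested were called and 4.43% were called higher. Metastasis IgG and healthy arrays were without overlap on 5 of 14, all higher and 4 of them of Nr2f2, where 27.5% of all probe sets did not overlap and 14.1% did so in that direction. Probe sets of 1 gene carry the same gene name, were read in the same arrays and are not taken as independent of each other. Taken by gene, with each gene read on its probe set of highest mean, Nr2f2 and Ackr1 were called and Ephb4, Slco2a1 and Bst1 were not. That is 2 of 5 genes, both higher, where 5.03% of all genes were called higher and 2.9% lower.

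Blocking VEGF was 1 of the study's means to ask which changes in ECs of metastatic lungs depend on it. The study also used an antibody to the receptor VEGFR2, in mice that were not analysed here. For the venous genes, the anti-VEGF arrays differed from healthy lungs on the same 2 probe sets. Nr2f2 on 1416159_at was 1.00 ± 0.11 log2 units above healthy lungs (95% interval 0.76 to 1.25, adjusted p = 0.00161), and Ackr1 was 1.73 ± 0.16 above them (1.37 to 2.10, adjusted p = 0.000761), or 3.33-fold. These were 2 of 14 probe sets called, where 5.41% of all were called and 3.32% were called higher, and 3 of 14 did not overlap, all higher, where 25.7% of all did not overlap and 12.6% did so in that direction. The third was Nr2f2 on 1416158_at, with a difference of 0.35 ± 0.14 that did not pass (adjusted p = 0.201). Both metastatic groups were set against the same 3 healthy arrays, so the 2 comparisons are not independent of each other.

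Set directly against metastasis IgG, the anti-VEGF arrays differed on no venous gene past the threshold. Ackr1 averaged 11.24 ± 0.269 log2 units under anti-VEGF and 11.01 ± 0.17 in metastasis IgG (SD, n = 3 each), with a difference of 0.23 ± 0.15 and an interval of -0.11 to 0.57 (adjusted p = 0.787, limma). Nr2f2 on 1416159_at averaged 11.05 ± 0.182 under anti-VEGF and 11.15 ± 0.0573 in metastasis IgG, with a difference of -0.10 ± 0.11 and an interval of -0.35 to 0.15 (adjusted p = 0.884). Ephb4 differed by 0.10 ± 0.11 (interval -0.14 to 0.35). Among the members, 0 of 14 probe sets were called, and 0 of 14 had an unadjusted p under 0.05. Of all 34945 probe sets, 0 were called by limma (0%) and 2667 (7.63%) had an unadjusted p under 0.05. The intervals thus leave room for effects of the antibody on these genes. For Nr2f2 on 1416159_at and Ackr1 they exclude a loss as large as the whole difference from healthy lungs. Other probe sets of Nr2f2 do not exclude it. On 1416158_at the interval was -0.61 to 0.25, where metastasis IgG stood 0.53 above healthy lungs. On 1436475_at it was -0.53 to 0.38, against a difference of 0.39. On 1416160_at and 1444229_at the intervals were -0.31 to 0.32 and -0.37 to 0.40, each against a difference of 0.21. On 1431237_at metastasis IgG lay under healthy lungs (-0.43), so there was no rise to lose, and the interval was -0.71 to 0.64.

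**Figure D3:**
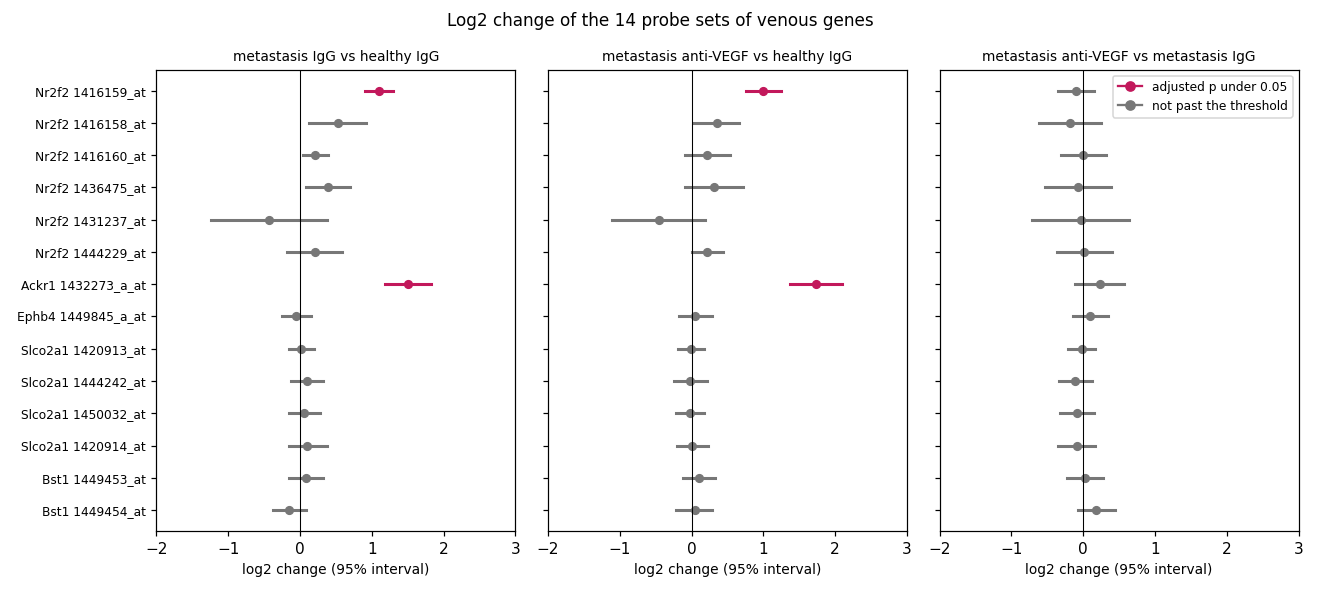
Log2 change (x axis) of the 14 probe sets of the venous genes (y axis) in metastasis IgG against healthy IgG (left), metastasis anti-VEGF against healthy IgG (middle) and metastasis anti-VEGF against metastasis IgG (right). Points are limma estimates with 95% intervals from 3 arrays per group, and crimson marks an adjusted p under 0.05. Nr2f2 on 1416159_at and Ackr1 are called in the left and middle panels, and no probe set is called on the right.

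Other genes of veins did not move as one. Of 20 further venous genes, 4 were higher and 3 lower in metastasis IgG than in healthy lungs, with a median log2 change of -0.07, where the median over all genes was 0 and 5.03% of genes were called higher and 2.9% lower. Lrg1, a secreted glycoprotein of the acute phase response also made by venular ECs, rose by 1.98 ± 0.11. Its values were 11.59, 11.68 and 11.69 under anti-VEGF, 11.44, 11.79 and 11.49 in metastasis IgG, and 9.56, 9.62 and 9.61 in healthy lungs, without overlap between metastatic and healthy arrays. Tmem252 (1.19 ± 0.16), the semaphorin and VEGF-C co-receptor gene Nrp2 (0.82 ± 0.10) and the P-selectin gene Selp (0.65 ± 0.08) were also higher. The other 3 probe sets of Nrp2 ranged over -0.02 to 0.79. Mustn1 (-0.76 ± 0.11), the adhesion molecule gene Amigo2 (-0.75 ± 0.12) and Car8, a carbonic anhydrase relative (-0.62 ± 0.12), were lower. The other probe set of Amigo2 differed by -0.22, and those of Car8 by -0.75 to -0.24. The leukocyte adhesion gene Vcam1 differed by -0.53 ± 0.20 without passing on the probe set read (adjusted p = 0.163). Under anti-VEGF, 4 of the 20 were higher and 2 lower than in healthy lungs (median 0.08), where 3.81% of all genes were called higher and 2.01% lower, with Lrg1 2.05 ± 0.08 and Selp 0.82 ± 0.08 above them, and none was called against metastasis IgG. On another of their probe sets, Vcam1 was called lower in metastasis IgG, and Car8 and Prss23 were called lower under anti-VEGF. The mean level of the 20 genes was 11.36 to 11.43 under anti-VEGF, 11.27 to 11.32 in metastasis IgG and 11.18 to 11.22 in healthy lungs. The 3 groups thus did not overlap in this mean, which was not tested.

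Most arterial and Notch genes were not called on the probe set read, and those called there were lower with 1 exception. Of 20 such genes, 4 were lower, 1 was higher and 15 were not called in metastasis IgG against healthy lungs (median -0.01). Of all genes, 2.9% were called lower and 5.03% higher. Hey2, a transcriptional repressor that acts downstream of Notch, gave 7.69, 7.55 and 7.40 log2 units under anti-VEGF, 7.76, 7.69 and 7.53 in metastasis IgG, and 8.36, 8.92 and 8.59 in healthy lungs. It was thus lower in every metastatic array, by 0.96 in metastasis IgG (log2 change -0.96 ± 0.14, adjusted p = 0.006). The kinase gene Bmx (-0.66 ± 0.09) and the forkhead factor genes Foxc2 (-0.66 ± 0.12) and Foxc1 (-0.46 ± 0.10) were lower too. The netrin receptor gene Unc5b was higher (0.61 ± 0.09). All values of Foxc2 (6.58 to 7.46) and the metastatic values of Hey2 lay under the median of all values, 8.31, which limits what can be read from them. Dll4, Notch1, Notch4, Gja4, Gja5 and Sox17 did not pass, with differences of -0.02 to 0.17 on the probe sets read. Under anti-VEGF, Hey2, Bmx, Foxc2 and Foxc1 were again lower than in healthy lungs and no gene of the list was higher, with Unc5b at 0.20 ± 0.15 (adjusted p = 0.502). Set directly against metastasis IgG, no gene of the list was called, and Unc5b differed by -0.41 ± 0.15 (adjusted p = 0.596, limma). On another of their probe sets, Efnb2 was called lower and Mecom higher in both metastatic groups, and Tmem100 lower in metastasis IgG. The mean level of the 20 genes was 11.20 to 11.27 under anti-VEGF, 11.32 to 11.35 in metastasis IgG and 11.41 to 11.46 in healthy lungs. Here too the 3 groups did not overlap, and this mean was not tested.

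**Figure D4:**
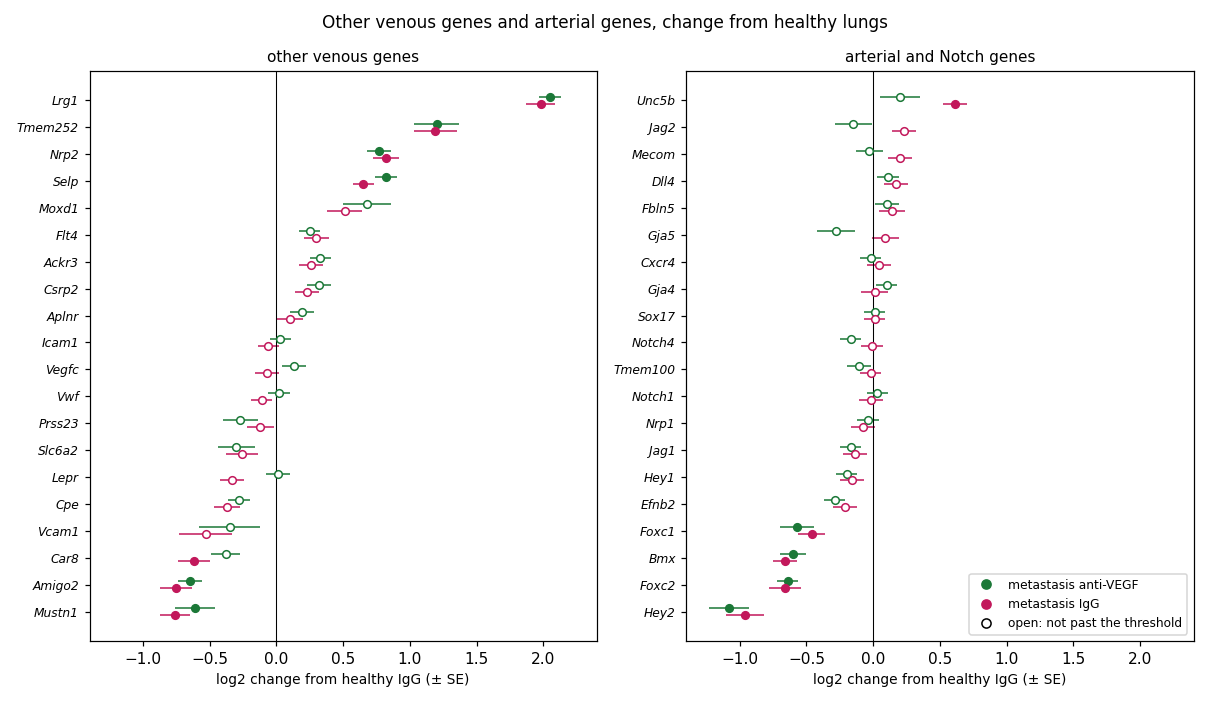
Log2 change from healthy IgG (x axis, ± SE, 3 arrays per group) of 20 further venous genes (left) and 20 arterial and Notch genes (right), ordered by the change in metastasis IgG, for metastasis anti-VEGF (green) and metastasis IgG (crimson). Filled points have an adjusted p under 0.05. Lrg1 leads the venous genes at 2.05 and 1.98, and Hey2 is the lowest of the arterial genes at -1.08 and -0.96.

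The partners of each member were read next. Among 5 relatives of Nr2f2 in its nuclear receptor subfamily, none was called in any comparison on the probe set read for the gene, while Nr2c2 in both metastatic groups and Nr2e1 under anti-VEGF were called lower than in healthy lungs on another. Nr2f1, its closest relative, gave 7.29, 7.41 and 7.41 under anti-VEGF, 7.32, 7.66 and 7.29 in metastasis IgG, and 6.45, 7.07 and 7.01 in healthy lungs, a metastasis IgG difference of 0.58 ± 0.18 without overlap that did not pass (adjusted p = 0.089). Nr2f6 differed by 0.09 ± 0.08. Among 7 B-type ephrins and Eph receptors, none was called in metastasis IgG on the probe set read. The ephrin-B2 gene Efnb2, the arterial ligand of EPHB4, gave on that probe set 12.86, 12.79 and 12.80 under anti-VEGF, 13.02, 12.85 and 12.84 in metastasis IgG, and 13.07, 13.13 and 13.13 in healthy lungs. Every metastatic array lay under every healthy array, but by -0.29 ± 0.08 under anti-VEGF (adjusted p = 0.0706) and -0.21 ± 0.09 in metastasis IgG (adjusted p = 0.204), short of the threshold. Its other 3 probe sets lay further down, at -0.49 to -0.44 under anti-VEGF, where all 3 were called lower (adjusted p = 0.0179 to 0.0298), and at -0.46 to -0.33 in metastasis IgG, where 2 of the 3 were called (adjusted p = 0.0188 and 0.0369). Ephb1 and Efnb3, those of smallest p in metastasis IgG, differed by 0.33 ± 0.12 and -0.25 ± 0.09 (adjusted p = 0.134 and 0.158). Under anti-VEGF, Epha4, which can also bind B-type ephrins, was lower than in healthy lungs by 0.47 on the log2 scale (log2 change -0.47 ± 0.11, adjusted p = 0.0497). Its 4 other probe sets differed by -0.38 to -0.17 and were not called.

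Of 9 chemokines that ACKR1 binds, 2 were higher in metastasis IgG than in healthy lungs and none lower (median 0.13). Of all genes, 5.03% were called higher and 2.9% lower in that comparison. Cxcl1, a neutrophil attractant, gave 10.57, 10.73 and 10.74 under anti-VEGF, 10.94, 10.52 and 10.64 in metastasis IgG, and 9.40, 9.72 and 9.77 in healthy lungs, and rose by 1.07 ± 0.14 in metastasis IgG (adjusted p = 0.00317). Ccl8, a monocyte attractant, rose by 0.91 ± 0.20 (adjusted p = 0.0292). Both were also higher under anti-VEGF than in healthy lungs, by 1.05 ± 0.12 and 0.86 ± 0.20. Cxcl2 and Ccl5 differed by 0.87 ± 0.29 and 0.53 ± 0.20 in metastasis IgG without passing (adjusted p = 0.118 and 0.162), and Ccl2, Ccl7, Ccl11, Ccl17 and Cxcl5 differed by -0.11 to 0.13 and did not pass either. Among 4 other atypical chemokine receptors, Ccrl2 was lower in metastasis IgG (-0.38 ± 0.09, adjusted p = 0.043), Ackr4 was called lower there on another probe set, and on the one read Ackr4 was higher under anti-VEGF than in healthy lungs (0.40 ± 0.08, adjusted p = 0.0294), with its other probe sets at -1.34 to 0.37.

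Around Slco2a1, 1 of 17 prostaglandin genes was called in metastasis IgG on the probe set read, or 5.88%, where 5.03% of all genes were called higher. Abcc4, an exporter of prostaglandins and of cyclic nucleotides, gave 9.17, 9.66 and 9.74 under anti-VEGF, 9.92, 10.04 and 9.53 in metastasis IgG, and 8.79, 8.81 and 8.90 in healthy lungs. It stood higher in all metastatic arrays, by 1.00 ± 0.13 in metastasis IgG (adjusted p = 0.00337) and 0.69 ± 0.14 under anti-VEGF (adjusted p = 0.0297). Hpgd, the enzyme that inactivates prostaglandins after their uptake, differed by -0.21 ± 0.10 in metastasis IgG (adjusted p = 0.269) on that probe set, and the inducible cyclooxygenase gene Ptgs2 by -0.09 ± 0.14 (adjusted p = 0.777). On another probe set, Hpgd and the receptor gene Ptger1 were called lower in metastasis IgG. The 4 other probe sets of the receptor gene Ptgfr ranged over -0.44 to 0.32 under anti-VEGF and -0.43 to 0.39 in metastasis IgG. A higher one was called in metastasis IgG and a lower one, a different probe set, under anti-VEGF. Set directly against metastasis IgG, these probe sets differed by -0.07 to 0.12 under anti-VEGF, and none was called. None of 8 NAD and cyclic ADP-ribose genes beside Bst1 was called on the probe set read. The other probe set of Nmnat1, an NAD-synthesizing enzyme, was called higher, by 1.36 ± 0.14 under anti-VEGF (adjusted p = 0.00126) and 1.53 ± 0.14 in metastasis IgG (adjusted p = 0.000615), against 0.25 ± 0.10 and 0.14 ± 0.08 on the one read. Those of smallest p in metastasis IgG were Nadk, the NAD kinase, at -0.16 ± 0.08 (adjusted p = 0.312) and Nadsyn1, an NAD synthetase, at 0.16 ± 0.09 (adjusted p = 0.323). Ptgs1 and Cd38 were not analysed here.

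The genes most like each member were those with the smallest mean absolute difference over the 9 arrays, after each gene was centred on its own mean. Nearest to Nr2f2 on 1416159_at were Adgrg1, an adhesion G protein-coupled receptor, at 0.0482 log2 units, Ndrg1, a hypoxia-responsive gene, at 0.0599 and Fscn1, the actin-bundling protein fascin, at 0.0772. Within 0.1 log2 units of Nr2f2 lay 14 genes. No gene lay within 0.1 of Ackr1 and 23 lay within 0.2, led by Hspb8, a small heat shock protein, at 0.148 and by Basp1 and the complement factor B gene Cfb at 0.159 each. For the members without a called change the measure picked out little. Ephb4 had 3081 genes within 0.1 (nearest Cyb5r4, Sult3a1 and Baiap2), Slco2a1 had 6753 (S100a7l2, Cox6a1 and Il1rapl2) and Bst1 had 1867 (Slc36a1, Ric1 and Pdia6).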

How the data were processed

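Per the methods, lung ECs were sorted by flow cytometry, RNA was extracted with a PicoPure kit and 1 ng was labeled with a 3′ IVT Pico kit. Normalization by RMA was done in Chipster by the authors, who deposited the resulting log2 intensities, 45101 probe sets in each of 9 arrays, with values of 5.38 to 14.76. RMA summarises the probes of a set and gives the arrays 1 distribution, which removes shifts of the whole array and narrows small changes of dim probe sets. Scanner files were not used here, so that background correction and scan date were not tried, and the precision is limited by 3 arrays per group.

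Of the probe sets, 9211 carried no gene name here and 932 several, and the 34945 naming 1 gene without controls were tested, covering 18193 genes. For each comparison, lmFit and eBayes of limma (3.58.1, R 4.3.3) were run on the 6 arrays of its groups, and probe sets were called where the p adjusted by Benjamini-Hochberg was under 0.05. The SE is that of the difference of 2 group means. A gene of a list, and each gene in the search for like genes, was read on its probe set of highest mean over 9 arrays. The members and lists were chosen with earlier results of these data known.

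Named genes were all members, up to 4 called genes of largest change in metastasis IgG against healthy IgG from each list (or the 2 of smallest p), direct partners of the members, the 3 most like genes and the sort markers. Further list genes (Selp, Amigo2, Car8, Vcam1, Foxc1, Epha4, Ackr4, Prox1, genes named as not passing and those called on another probe set) were named after their values were seen. Other settings tried were filters on dim probe sets, all probe sets of the table, 1 probe set or the mean per gene, 1 fit over 9 arrays, a block for the replicate number, centring, quantile normalization once more, the trend and robust options, weights of arrays, and leaving out each array. The fit was tested on simulated data. Replicates were compared, and 0 pairs of arrays were identical. Promoter windows and positions came from RefSeq on GRCm38.p6, with positions for all 5 members and windows for 4 of them. Plots used matplotlib 3.10.9 and pandas 2.3.3 (Python 3.11.15).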

Additional observations from a re-analysis of the deposited data

How the results depend on the processing

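The number of member probe sets called was 2 in metastasis IgG against healthy IgG and 2 in metastasis anti-VEGF against healthy IgG. It was 0 in metastasis anti-VEGF against metastasis IgG. These counts held under every alternative that kept probe sets apart, each array left out included. The mean per gene, given below for Nr2f2, is not among those alternatives. Over 16 alternatives per comparison, Nr2f2 on 1416159_at ranged over 1.07 to 1.13 log2 units in metastasis IgG (adjusted p 6.83e-06 to 0.0038) and 0.91 to 1.09 under anti-VEGF (7.43e-05 to 0.00972), against healthy lungs. Ackr1 ranged over 1.38 to 1.61 (2.49e-05 to 0.00679) and 1.60 to 1.87 (3.3e-05 to 0.0052). Read as the mean of its 6 probe sets, Nr2f2 differed by 0.33 in metastasis IgG (adjusted p = 0.137) and 0.27 under anti-VEGF (adjusted p = 0.21) and was not called. By construction that mean gives the 5 probe sets that did not pass most of the weight. Differences that did not pass changed sign in 29 cases. Replicate numbers do not pair the arrays: same-numbered arrays correlated at -0.0739 to 0.0371 in their deviations from the group means, 0 pairs over 0.1, and with the replicate block the calls were 2, 2 and 0. A minimum of 5 log2 units removed no probe set, since the lowest value was 5.38, and a filter at the median of all values was chosen after seeing the data. Nr2f2 on 1431237_at and 1444229_at lay under that median in all 3 comparisons, and dim probe sets limit what can be read from them.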
